A study of Homo sapiens with 4 samples.

Results

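The interferon-stimulated genes studied here are a list of 47 human genes that cells switch on when an interferon binds their surface. The members were taken by gene symbol, and for each the probe set with the highest average on the 4 arrays was used, among those annotated with that symbol alone. Of the 47 listed genes, 46 were measured and 42 were bright enough to be tested, among 18239 genes measured and 14970 tested in all. The remaining listed gene was not analysed here. The genes were compared between MTAC-P cells (2 arrays) and PC9 cells (2 arrays). MTAC-P is a resistant human lung cancer line obtained through mild tyrosine kinase inhibitor (TKI) treatment, for which the labels name no inhibitor, dose or parent line. PC9 is an established line from a human lung adenocarcinoma and carries an activating mutation of EGFR. Both lines were grown in the same medium with serum, the labels name no interferon or other stimulus for either, and they do not say whether the 2 arrays of a line came from separate cultures.

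Interferons act through receptors at the cell surface whose attached kinases, among them JAK1 and TYK2, activate STAT transcription factors. Together with IRF9 these bind a short promoter motif, the interferon-stimulated response element (ISRE), and alone they bind the gamma-activated site (GAS). The induced proteins sense viral RNA, block viral entry and budding, degrade RNA, attach the ubiquitin-like protein ISG15 to other proteins and recruit T cells, and epithelial tumour cells often express part of the set without added interferon.

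Promoter windows, running from 250 bases before to 50 bases after the annotated start, were found for 38 of the listed genes in RefSeq (assembly GRCh38.p14). The ISRE core, which is GAAA, then any 2 bases, then GAAA, searched on both strands, was present in 25 of these 38 windows (65.8%), against 996 of 27305 promoter windows of all genes (3.65%). The GAS core TTCNNNGAA, which reads the same on both strands, was present in 11 windows (28.9%), against 7.88% of all windows, and in 4 of the 11 it overlapped an ISRE core. A match is a run of letters and not a measured binding site. The 5 stretches below are shown because their genes stand for the patterns that follow. They are SAMD9, with the largest difference between the lines, DDX60, an RNA helicase whose arrays did not overlap between the lines, BST2 and ISG15, which were above all background controls in both lines, and IFIT1, which was at background in both. Each is printed 5′ to 3′ on the strand of its gene, with the ISRE cores in capitals.
SAMD9 (chr7:93118066-93118155, minus strand): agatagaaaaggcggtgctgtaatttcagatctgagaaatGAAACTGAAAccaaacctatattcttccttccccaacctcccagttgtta
DDX60 (chr4:168318756-168318880, minus strand): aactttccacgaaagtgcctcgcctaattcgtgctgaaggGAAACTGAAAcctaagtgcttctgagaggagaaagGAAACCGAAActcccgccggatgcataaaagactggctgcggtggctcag
BST2 (chr19:17405705-17405800, minus strand): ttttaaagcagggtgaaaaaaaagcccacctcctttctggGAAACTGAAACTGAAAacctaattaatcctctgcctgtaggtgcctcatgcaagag
ISG15 (chr1:1013344-1013439, plus strand): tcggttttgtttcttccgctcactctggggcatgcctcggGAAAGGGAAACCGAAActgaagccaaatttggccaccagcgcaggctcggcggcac
IFIT1 (chr10:89392467-89392569, plus strand): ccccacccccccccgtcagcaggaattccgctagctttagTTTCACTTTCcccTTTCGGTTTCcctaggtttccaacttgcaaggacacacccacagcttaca
BST2 and ISG15 each hold 2 overlapping cores, DDX60 holds 2 separate ones, SAMD9 holds 1, and in IFIT1 both cores lie on the opposite strand. Of the 25 measured genes with an ISRE core in the window, 19 had a lower mean in MTAC-P, with a median log2 difference of -0.17. Of the 12 measured genes with a window but no core, 8 had a lower mean in MTAC-P, with a median of -0.09. The difference between these 2 sets was not tested.

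The level at which a gene counts as measured matters for this list, because many members were dim. The arrays carry 23 background control probe sets that differ in how many of their bases are G or C. The control with 25 G or C bases read 7.34 and 7.38 in MTAC-P and 6.94 and 6.81 in PC9 (log2). The highest of the other 22 controls read 4.999 and 5.23 in MTAC-P and 4.95 and 4.80 in PC9, so the control with 25 stood far above the rest on all 4 arrays. The controls themselves differed between the lines, and 21 of the 23 averaged higher in MTAC-P, by 0.48 for the control with 25 G or C bases and by a median of 0.03 for the other 22.

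**Figure D1:**
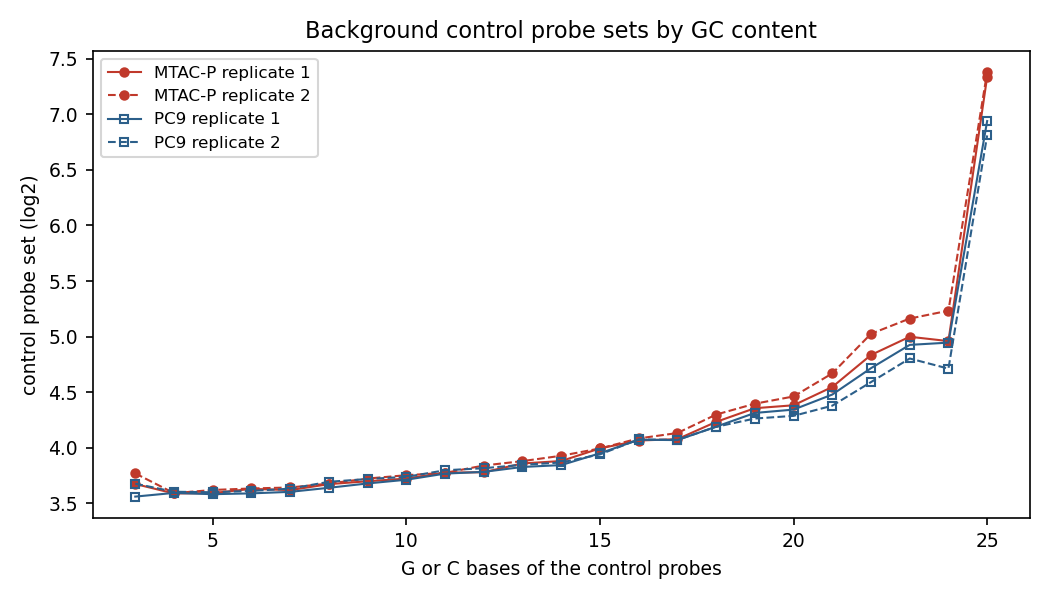
Level of each background control probe set (log2) against the number of G or C bases of its probes, with 1 line per array (filled circles MTAC-P, open squares PC9, dashed lines replicate 2). The last control, with 25, reads 7.34 and 7.38 in MTAC-P and 6.94 and 6.81 in PC9.

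Taking every control as the limit, 14 of the 46 measured members were above background in at least 1 line, 10 of them in MTAC-P and 14 in PC9. The 10 that were above all controls on all 4 arrays were IFITM2, IFITM3, BST2, OAS3, ISG15, UBE2L6, PARP12, DTX3L, IFI35 and LGALS3BP. IRF7, USP18, SAMD9 and PARP9 were above them on both arrays of PC9 only. Taking the 22 controls with 3 to 24 G or C bases as the limit, 27 members were above background in at least 1 line, 19 of them in MTAC-P and 27 in PC9. The 19 members that did not pass this limit on both arrays of either line included the strongly inducible IFIT1, IFIT2, MX2, OAS2, RSAD2, CMPK2, CXCL10, CXCL11 and IFI27. The higher controls in MTAC-P lie beside the smaller counts in that line, and their part in the counts was not tested.

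No interferon-stimulated gene was called different between the lines by limma at an adjusted p under 0.05, where 0.0200% of all tested genes (3 of 14970) were called, 0.00668% lower and 0.0134% higher in MTAC-P. The lowest adjusted p among the members was 0.11 (limma, Benjamini-Hochberg over all tested genes). At an unadjusted p under 0.05, 9 of the 42 tested members (21.4%) were lower in MTAC-P, against 11.1% of all tested genes. They were SAMD9, PARP9, GBP2, DTX3L, IFITM1, PARP14, IFIH1, DDX60 and CXCL10. At the same unadjusted p, 0 members were higher, against 7.76% of all tested genes. Both arrays of MTAC-P lay below both arrays of PC9 for 17 members (40.5%), against 24.9% of all tested genes, and above them for 5 members (11.9%), against 28.3%. The 5 were IFIT3, IFITM2, OAS2, PARP12 and XAF1.

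The mean was lower in MTAC-P for 30 of the 42 tested members (71.4%), against 46.2% of all tested genes. Over all 46 measured members the median log2 difference, MTAC-P minus PC9, was -0.16, with a range from -1.50 to 0.40, against a median of 0.03 over all tested genes. Without the second PC9 array the members' median was -0.08. Among the 14 members above every control in at least 1 line, 10 had a lower mean in MTAC-P, with a median of -0.17. Of the 7362 genes above the same limit 48.7% were lower, with a median of 0.01. IRF7, USP18, SAMD9 and PARP9 passed this limit in PC9 only, where the controls were lower. Passing in either line can thus favour genes higher in PC9, so the count is no separate support for a direction. Of the members above every control in both lines, IFITM2, PARP12 and IFI35 had higher means in MTAC-P. Among the 19 members that did not pass the controls with 3 to 24 G or C bases in either line, 12 had a lower mean, with a median of -0.04. Of the 4696 tested genes that did not pass them, 41.9% had a lower mean. The 19 include members too dim to be tested, so the sets are not alike. Most of the differences were small beside the replicate spread, as they were over all tested genes. In 27 of the 42 tested members (64.3%) the gap between the duplicates of a line exceeded the difference between the lines. This was so for 61.5% of all tested genes. At least 1.5-fold separated the means of 4 members (9.52%), SAMD9, GBP2, PARP9 and GBP1, all lower in MTAC-P, against 8.11% of all tested genes. A mean at least 1.5-fold higher was found for 0 members, against 3.77%. The arrays measure RNA from whole cultures, so fewer cells that express a gene and less RNA per cell cannot be told apart.

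**Figure D2:**
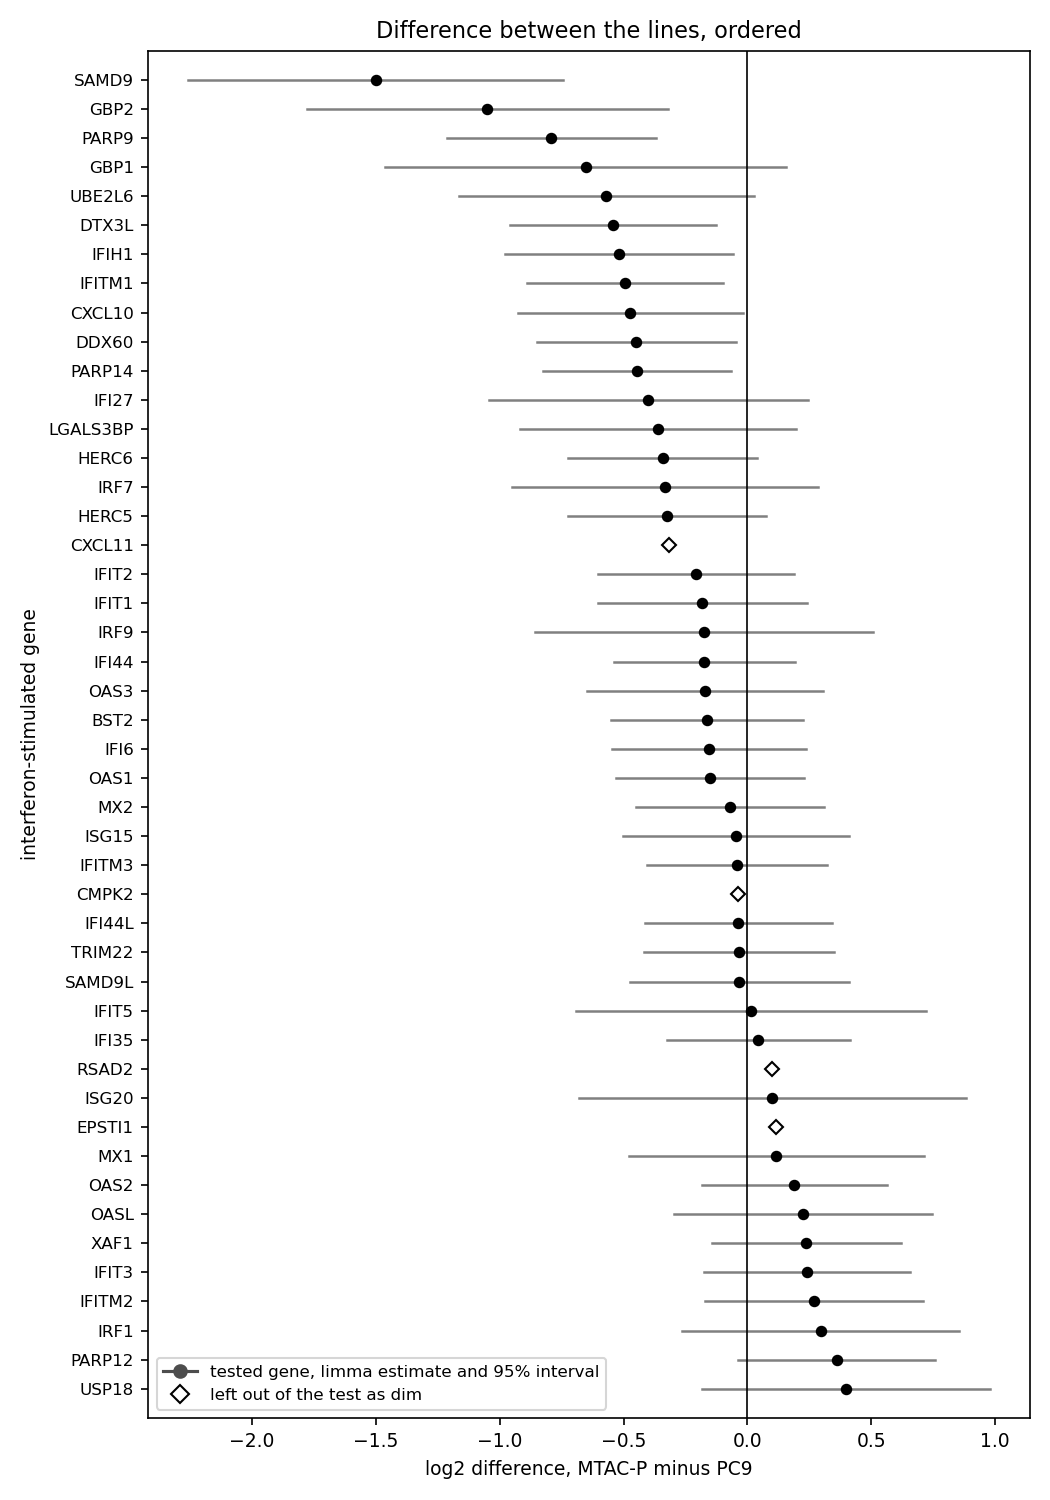
Log2 difference, MTAC-P minus PC9, of each of the 46 measured members (horizontal axis), ordered from the most negative. Points with bars are limma estimates with 95% intervals for the 42 tested genes and open diamonds are the 4 dim genes left out of the test. The intervals of 9 genes lie wholly below 0 and none lies wholly above it.

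SAMD9 and its neighbour SAMD9L encode related antiviral proteins that also restrain cell growth, and poxviruses carry inhibitors of them. SAMD9 read 7.15 and 6.41 in MTAC-P and 8.60 and 7.96 in PC9 (log2). Both MTAC-P arrays were below both PC9 arrays, and each line's duplicates were themselves 0.74 and 0.64 apart in MTAC-P and PC9. The means were 6.78 ± 0.53 in MTAC-P and 8.28 ± 0.46 in PC9 (SD, n = 2 each), a difference of -1.50 with a 95% interval from -2.26 to -0.74 and an adjusted p of 0.11 by limma. Leaving out 1 array at a time kept the difference between -1.87 and -1.13. In MTAC-P both arrays were below the control with 25 G or C bases. With the MTAC-P values set at that control SAMD9 was 1.90-fold lower in MTAC-P, and the measured means were 2.83-fold apart. The 1.90 is a point value that leaves out sampling error. SAMD9L, which lies beside it on chromosome 7, read 4.26 and 4.64 in MTAC-P and 4.49 and 4.47 in PC9. These values were below the highest background control of either limit, the arrays overlapped and the difference was -0.03.

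**Figure D3:**
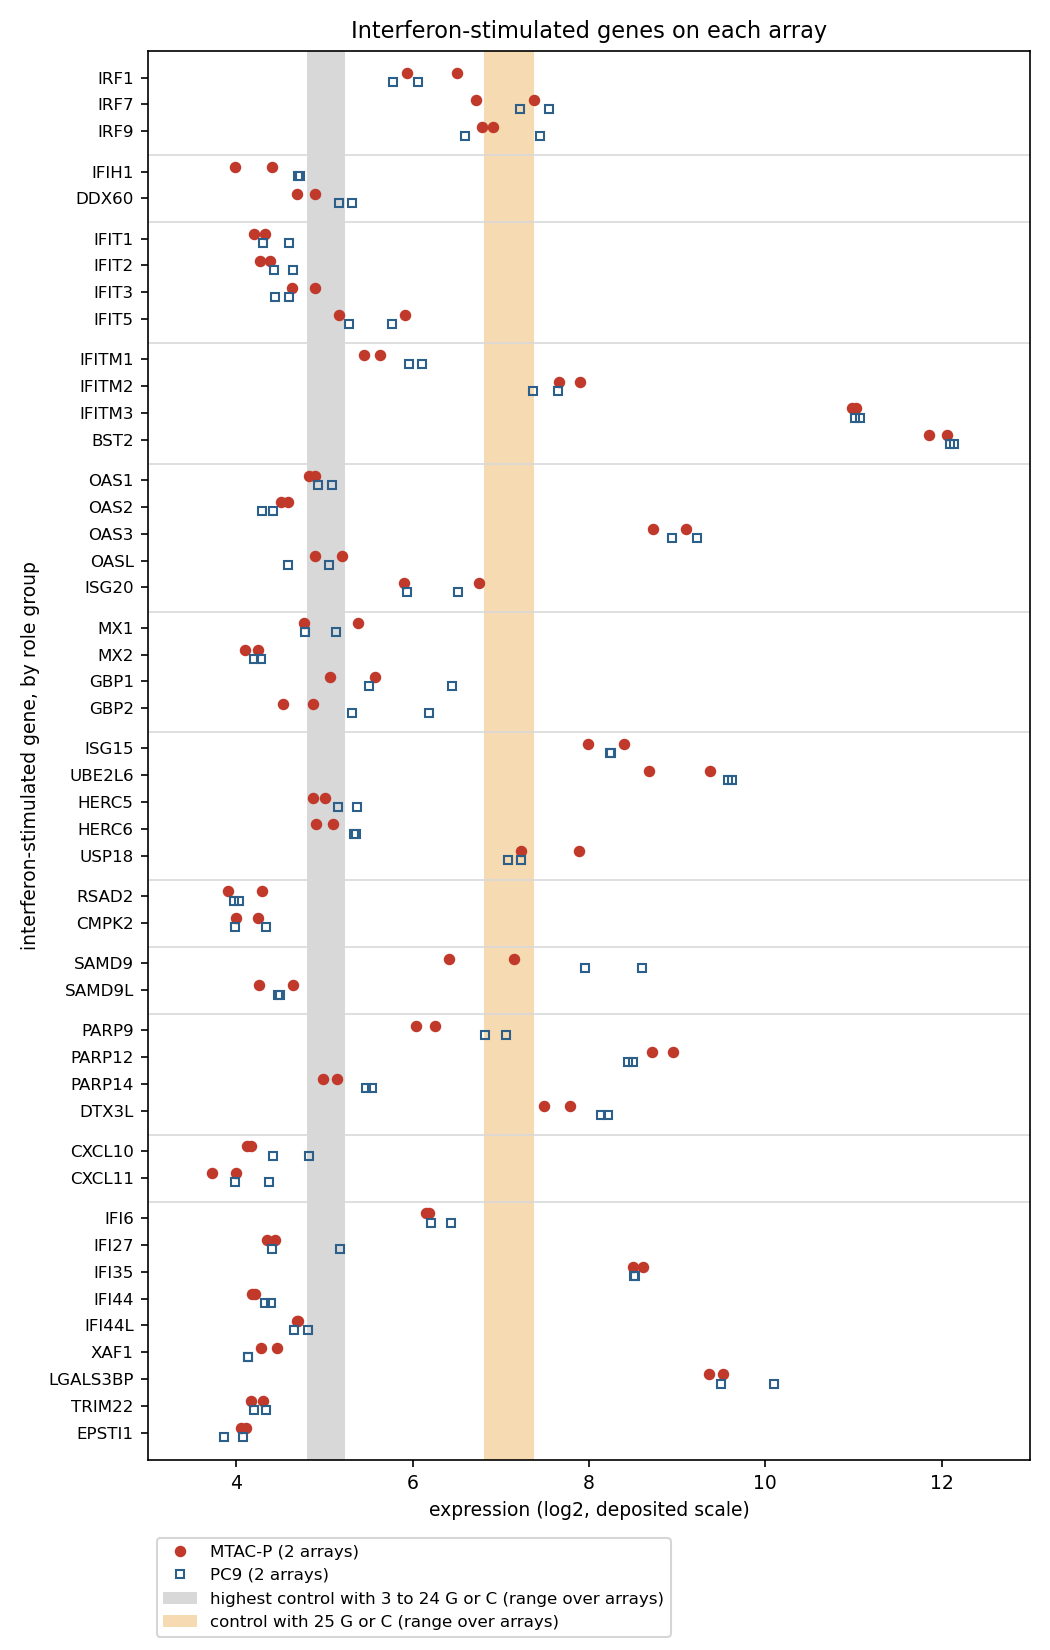
Deposited log2 value of each of the 46 measured members on every array (filled circles MTAC-P, 2 arrays; open squares PC9, 2 arrays), with genes grouped by role. The grey band is the range over arrays of the highest control with 3 to 24 G or C bases, and the orange band that of the control with 25. SAMD9 shows the widest gap between the lines, and 19 genes do not pass the controls of the grey band in either line.

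The PARP enzymes of the list attach ADP-ribose to proteins, and PARP9 works in a complex with the ubiquitin ligase DTX3L. All 4 genes of this group had arrays that did not overlap between the lines, 3 of them lower in MTAC-P and 1 higher. Such a lack of overlap was common, with 24.9% of all tested genes lower and 28.3% higher in MTAC-P in this way. PARP9 read 6.25 and 6.04 in MTAC-P and 7.06 and 6.81 in PC9, a difference of -0.79 (95% interval -1.21 to -0.37, adjusted p 0.12 by limma). A further bright probe set of PARP9, bright meaning that it passed the controls with 3 to 24 G or C bases in at least 1 line, differed by -0.14, so the probe sets shared a sign but not a size. DTX3L read 7.78 and 7.49 in MTAC-P and 8.21 and 8.13 in PC9, a difference of -0.54 (adjusted p 0.18 by limma). Its other bright probe set also gave -0.54. The annotated starts of PARP9 and DTX3L are 446 bases apart on chromosome 3. PARP12, which restricts several RNA viruses, read 8.71 and 8.95 in MTAC-P and 8.50 and 8.44 in PC9, a difference of 0.36 (95% interval -0.04 to 0.76, adjusted p 0.30 by limma). It was higher on both MTAC-P arrays, against the direction of the rest of its group. PARP14 differed by -0.44 and passed the controls with 3 to 24 G or C bases in PC9 only.

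The guanylate-binding proteins GBP1 and GBP2 are GTPases that attack intracellular pathogens, and the dynamin-like MX1 and MX2 trap viral nucleoproteins and capsids. GBP2 read 4.87 and 4.52 in MTAC-P and 6.18 and 5.31 in PC9, a difference of -1.05 (95% interval -1.78 to -0.32, adjusted p 0.16 by limma). Its arrays did not overlap, but the PC9 duplicates were 0.87 apart. Both MTAC-P arrays were below the highest of the controls with 3 to 24 G or C bases. GBP1, the neighbour of GBP2 on chromosome 1, read 5.57 and 5.06 in MTAC-P and 6.44 and 5.50 in PC9. The arrays of GBP1 overlapped between the lines, its difference was -0.65 (adjusted p 0.34 by limma), and its 5 probe sets gave values from -0.87 to -0.36. MX1 and MX2 differed by 0.12 and -0.07, with overlapping arrays.

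ISG15 is attached to target proteins by a chain of enzymes that includes the conjugating enzyme UBE2L6 and the ligase HERC5, and USP18 removes it again and also dampens the type I receptor. UBE2L6 read 8.68 and 9.38 in MTAC-P and 9.58 and 9.62 in PC9. Both MTAC-P arrays were below both PC9 arrays, but the MTAC-P duplicates were 0.70 apart, more than the difference of -0.57 between the lines (adjusted p 0.28 by limma). ISG15 itself read 7.99 and 8.40 in MTAC-P and 8.24 and 8.25 in PC9, so the MTAC-P arrays lay on either side of the PC9 arrays and the difference was -0.05. USP18 read 7.22 and 7.88 in MTAC-P and 7.08 and 7.23 in PC9, with an overlap at 7.22 and 7.23 and a difference of 0.40 that was the most positive of the list (adjusted p 0.41 by limma). The adjacent chromosome 4 genes HERC5 and HERC6 differed by -0.32 and -0.34. Their arrays did not overlap between the lines, and both genes passed the controls with 3 to 24 G or C bases in PC9 only.

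The IFITM proteins block the fusion of viruses with cell membranes, and BST2, also called tetherin, holds budding viruses at the cell surface. The 3 IFITM genes are neighbours on chromosome 11 and did not share a direction. IFITM1 read 5.44 and 5.63 in MTAC-P and 6.11 and 5.95 in PC9, a difference of -0.49 (95% interval -0.89 to -0.10, adjusted p 0.20 by limma). Both MTAC-P arrays were lower, and the other bright IFITM1 probe set gave -0.996. IFITM2 read 7.66 and 7.90 in MTAC-P and 7.65 and 7.37 in PC9, a difference of 0.27 (adjusted p 0.46 by limma), and its other probe set gave 0.55. The IFITM2 arrays of the lines came as near as 7.66 in MTAC-P and 7.65 in PC9. IFITM3 read 11.03 and 10.98 in MTAC-P and 11.02 and 11.07 in PC9, a difference of -0.04 with a 95% interval from -0.41 to 0.32. BST2 read 11.86 and 12.06 in MTAC-P and 12.10 and 12.14 in PC9. Its difference of -0.16 was smaller than the 0.20 between the MTAC-P duplicates, and its 3 bright probe sets gave from -0.16 to -0.06. These IFITM genes have closely related sequences, so their probe sets may share signal.

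The OAS enzymes make oligoadenylates that switch on an RNA-cutting enzyme, OASL is a relative without that activity, and ISG20 is an exonuclease. OAS3 read 8.73 and 9.09 in MTAC-P and 8.94 and 9.23 in PC9, with arrays that alternated between the lines and a difference of -0.17 (adjusted p 0.67 by limma). OASL read 5.20 and 4.89 in MTAC-P and 4.58 and 5.05 in PC9, a difference of 0.23 with overlapping arrays. The remaining members of the group, OAS1, OAS2 and ISG20, differed by -0.15, 0.19 and 0.10. Of the 5 genes, OAS3 alone was above all controls.

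Of the transcription factors, IRF9 is the DNA-binding partner of the STAT proteins, IRF7 drives interferon genes, and IRF1 is a main target of interferon gamma. All 3 had overlapping arrays. IRF1 read 5.93 and 6.50 in MTAC-P and 6.06 and 5.78 in PC9, a difference of 0.30 (adjusted p 0.52 by limma). IRF7 read 7.38 and 6.72 in MTAC-P and 7.55 and 7.21 in PC9, a difference of -0.33 (adjusted p 0.51 by limma). IRF9 read 6.91 and 6.79 in MTAC-P and 6.60 and 7.45 in PC9, a difference of -0.17 (adjusted p 0.77 by limma). In each of the 3 the wider duplicate gap, 0.57, 0.66 and 0.85 in that order, exceeded the difference.

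The RNA sensors, the IFIT proteins and the chemokines were mostly at background. IFIH1, a sensor of long double-stranded RNA also called MDA5, read 3.98 and 4.40 in MTAC-P and 4.72 and 4.70 in PC9. Its arrays did not overlap, with a difference of -0.52 (adjusted p 0.23 by limma), but its other probe set, also dim, gave 0.16. All 4 values given for IFIH1 were below the highest of the controls with 3 to 24 G or C bases of their arrays. The helicase DDX60 differed by -0.45 and was above those controls in PC9 only. The chemokine CXCL10, which attracts T cells, read 4.17 and 4.12 in MTAC-P and 4.41 and 4.82 in PC9. Its difference was -0.47 (adjusted p 0.25 by limma), with all but 1 value below the highest of the same controls. CXCL11, next to it on chromosome 4, was too dim to be tested. IFIT3, which works with IFIT1 in binding foreign RNA, read 4.63 and 4.89 in MTAC-P and 4.59 and 4.44 in PC9, a difference of 0.24 (adjusted p 0.48 by limma). IFIT1, IFIT2 and IFIT5 differed by -0.18, -0.21 and 0.01, and only IFIT5 passed the controls with 3 to 24 G or C bases, in PC9.

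RSAD2, the antiviral enzyme viperin, read 3.90 and 4.29 in MTAC-P and 4.03 and 3.97 in PC9. It was left out of the test as dim, as was its neighbour CMPK2, and the arrays of both overlapped between the lines. LGALS3BP, a secreted glycoprotein, read 9.36 and 9.52 in MTAC-P and 9.49 and 10.10 in PC9, a difference of -0.36 (adjusted p 0.44 by limma). Its arrays overlapped, and the PC9 duplicates were 0.61 apart. IFI27, a mitochondrial protein often used as a marker of interferon exposure, read 4.34 and 4.44 in MTAC-P and 4.40 and 5.18 in PC9. Only the second PC9 array stood apart, and that array carried most of the difference of -0.40, which was -0.01 without it. IFI35 differed by 0.04, with all 4 values between 8.50 and 8.61. IFI6, IFI44, IFI44L, XAF1, TRIM22 and EPSTI1 differed by -0.16, -0.17, -0.04, 0.24, -0.03 and 0.12.

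**Figure D4:**
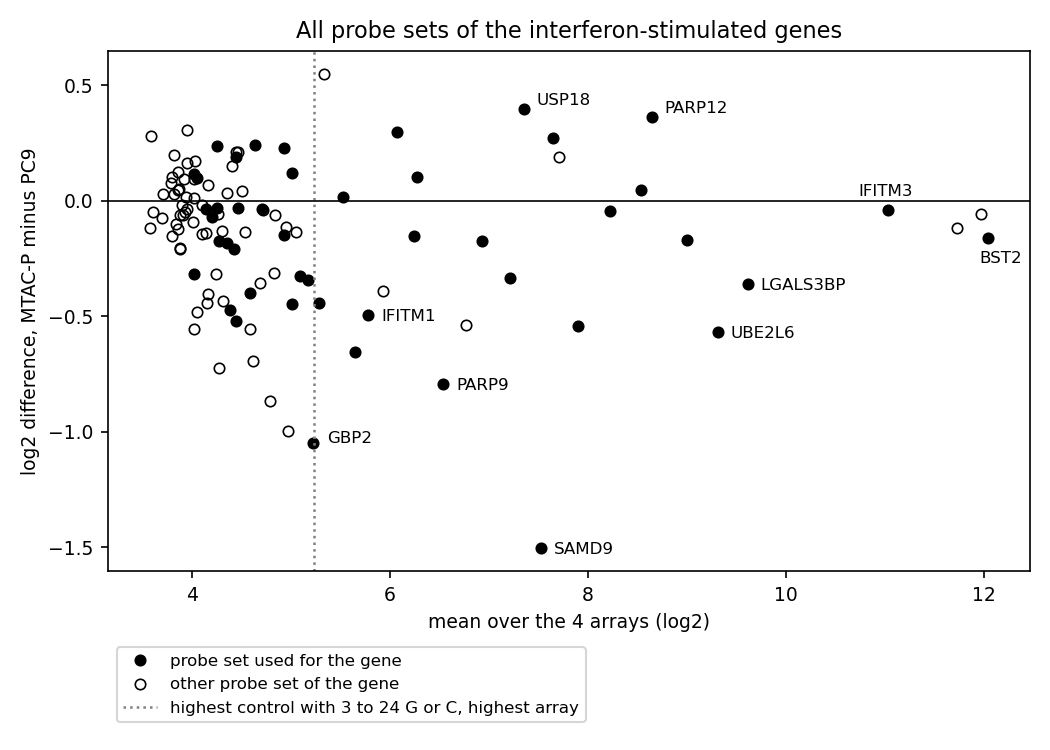
Log2 difference, MTAC-P minus PC9, against the mean over the 4 arrays (log2) for all 111 probe sets of the 46 measured members, with the probe set used for each gene filled. The dotted line is the highest control with 3 to 24 G or C bases on the array where it read highest. Each of the 10 labelled genes is marked at its filled point, and SAMD9 lies lowest.

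A second look at the genes came from their further probe sets. Of the 46 measured members, 26 had more than 1 probe set and up to 7. In 8 members at least 2 probe sets were bright, and in all 8 the bright ones had the same sign. The share of all genes with such agreement was not computed, and passing in either line can favour probe sets higher in PC9. The 8 members were IRF9, IFITM1, IFITM2, BST2, OAS3, PARP9, DTX3L and IFI35. With dim probe sets included, the values of IRF9 and OAS3 each reached up to 0.21, against the sign of their bright ones. Outside the 8, probe sets also differed in sign in several members. Among these were IRF1 (-0.55 to 0.30), IFIH1 (-0.52 to 0.16), PARP14 (-0.73 to 0.03) and SAMD9L (-0.03 to 0.31). SAMD9, GBP2, UBE2L6, USP18, PARP12 and LGALS3BP had a single probe set, so they have no other probe set to compare.

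Around these genes, 59 further interferon pathway genes were listed, of which 54 were measured and 48 tested. By limma at an adjusted p under 0.05, 0 of them were called, and 9 of the 48 had an unadjusted p under 0.05, close to the 18.9% of all tested genes at that level. Their means were divided, with 26 lower and 28 higher in MTAC-P and a median difference of 0.03. IFNGR1, a chain of the interferon gamma receptor, read 9.62 and 9.68 in MTAC-P and 10.36 and 11.21 in PC9. Both MTAC-P arrays were lower, the difference was -1.13 (95% interval -1.82 to -0.45, adjusted p 0.13 by limma), and a further bright probe set gave -0.91. Leaving out each array in turn gave IFNGR1 differences from -1.56, without the first PC9 array, to -0.71, without the second. The adjusted p by limma was 0.042 and 0.34 in these fits, in which the lone PC9 array is assumed to vary as the MTAC-P arrays do, and 0.18 and 0.33 without the first and the second MTAC-P array. Its partner chain IFNGR2, which is outside the naming rule, averaged 0.47 higher, also with arrays that did not overlap.

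The type I receptor chains IFNAR1 and IFNAR2 were lower on both MTAC-P arrays without passing the test. IFNAR1 read 7.50 and 7.17 in MTAC-P and 7.64 and 7.79 in PC9, a difference of -0.38 (adjusted p 0.32 by limma), and its 4 bright probe sets gave from -0.88 to -0.25. IFNAR2 read 6.63 and 6.71 in MTAC-P and 6.88 and 7.18 in PC9, a difference of -0.36 (adjusted p 0.32 by limma), but another bright probe set gave 0.57, so its direction is not settled. The kinase JAK1 read 10.67 and 10.64 in MTAC-P and 10.81 and 11.17 in PC9, a difference of -0.33, and its probe sets disagreed in sign, from -0.33 to 0.22. TYK2 read 8.47 and 8.32 in MTAC-P and 8.51 and 8.49 in PC9, a difference of -0.11.

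PTPN11, a phosphatase that acts on these kinases' signalling, read 9.43 and 9.32 in MTAC-P and 10.00 and 9.79 in PC9, a difference of -0.52 (adjusted p 0.18 by limma). The other bright probe set of PTPN11 gave -0.24, and with dim ones included its 4 probe sets reached up to 0.12. TBK1, the kinase that activates IRF3 after nucleic acid sensing, read 8.45 and 7.98 in MTAC-P and 8.88 and 8.67 in PC9. Its difference was -0.56 (adjusted p 0.23 by limma), and its other bright probe set gave -1.19. NMI, an interferon-induced STAT partner, read 8.96 and 8.91 in MTAC-P and 9.46 and 9.30 in PC9, a difference of -0.45 (adjusted p 0.21 by limma), with all 5 probe sets between -0.45 and -0.25. These 3 were lower on both MTAC-P arrays. NMI was named from a group of further interferon-induced genes outside the member list. Of the 21 measured genes of that group, 8 had a lower and 13 a higher mean in MTAC-P, with a median difference of 0.09. The lower means of most members were therefore not shared by this group.

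Other pathway genes were higher on both MTAC-P arrays. They are outside the naming rule and were chosen after their values were seen. SOCS3, an inhibitor of JAK kinases, read 6.42 and 6.52 in MTAC-P and 5.79 and 5.52 in PC9, a difference of 0.81 (95% interval 0.40 to 1.23, adjusted p 0.11 by limma). This was the lowest adjusted p of the pathway genes, the 1.76-fold difference was their only one of at least 1.5-fold upward, and SOCS3 was below the control with 25 G or C bases on all 4 arrays. IRF3, the transcription factor that TBK1 activates, read 9.04 and 9.69 in MTAC-P and 8.89 and 8.76 in PC9, a difference of 0.54 (adjusted p 0.28 by limma), and its 6 bright probe sets gave from 0.20 to 0.69. CGAS, a sensor of DNA in the cytosol, read 8.09 and 8.10 in MTAC-P and 7.78 and 7.41 in PC9, a difference of 0.50 (adjusted p 0.22 by limma), while its other bright probe set gave 0.04. TICAM1, an adaptor of the RNA sensor TLR3, differed by 0.46 (adjusted p 0.28 by limma). The MTAC-P duplicates of IRF3 and TICAM1 were 0.65 and 0.48 apart, more than the difference between the lines in each. None of SOCS3, IRF3, CGAS and TICAM1 passed the test. The interferon genes measured were IFNB1, IFNE, IFNK, IFNL1 and IFNG. On all 4 arrays they were below the highest of the controls with 3 to 24 G or C bases.

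The 4 arrays had medians between 4.85 and 4.88. Over the tested genes the duplicates correlated at r = 0.990 in MTAC-P and 0.992 in PC9, and arrays of different lines at 0.980 to 0.990, with genes as points that are not independent replicates. All 7 epithelial markers were above every control in both lines, and 0 of 4 lung lineage markers passed the controls with 3 to 24 G or C bases in either. Of 8 measured leukocyte markers only CD68, which other cells also express, passed them, and 0 of 6 fibroblast markers did. TCF4 was the only 1 of 4 plasmacytoid dendritic cell markers to pass them, in both lines, and CDH5 the only 1 of 4 endothelial markers, in PC9. The summed levels of the leukocyte markers were 38.7 and 38.3 in MTAC-P and 37.8 and 38.9 in PC9 (log2 values added), so the lines overlapped. With only CD68 above those controls, the sum consists mostly of background values and cannot compare the leukocyte content of the lines.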

How the data were processed

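RNA of MTAC-P (2 arrays) and PC9 (2 arrays) was measured on one-colour arrays. Per the labels' protocols an Agilent one-colour labelling kit was used, and the submitters' processing notes name Agilent Feature Extraction 10.7. The names of the probe sets and controls are nevertheless of Affymetrix type, and which description holds could not be settled. The deposited table gives log2 expression, 1 value per probe set and array, and the scale was inferred from its range of 3.32 to 14.6. What background correction and normalization the authors applied is not given in the sources used here. Array medians lay between 4.85 and 4.88, so no further scaling was done.

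Of 49386 probe sets, 93 were controls, 45253 carried a single symbol in the platform annotation, 1327 carried more than 1 and 2713 carried none. This gave 18239 genes, and those averaging below 4.14, the 25th percentile over the whole table, were not tested. MTAC-P was set against PC9 by limma 3.58.1 (lmFit, eBayes; R 4.3.3), 2-sided, with Benjamini-Hochberg adjustment over 14970 genes and a threshold of 0.05. Intervals cover 95% and errors are standard deviations (SD). An exact permutation test of 2 arrays against 2 cannot give a p below 0.333, the small number of arrays limits precision, and the spread between duplicates may be technical. A gene was above background in a line when both arrays exceeded every background control of the same array. Fold differences understate genes near background.

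The members and lists were chosen with earlier results of these data known. Genes given with every array are any called member, the 12 largest differences above background, the largest difference of each role group, and always the transcription factors, SAMD9, SAMD9L, ISG15 and the IFITM genes. Pathway genes are the largest difference above every background control in each group, and always the type I receptor chains, JAK1 and TYK2. Other genes were named to account for the lists. The limma step was tested on simulated data. Promoter sequences are RefSeq's (GRCh38.p14). Scaling, filter, probe-set choice, variance prior, pseudocount, replicate block and left-out arrays were varied. Plots were made in matplotlib 3.10.9 under Python 3.11.15.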

Additional observations from a re-analysis of the deposited data

How the results depend on the processing

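With 2 arrays a line, dim members and single probe sets limit what can be seen, and values near background have compressed differences. The count of called genes (3) was 1 with a filter at the 50th percentile or a pseudocount of 16, 0 with the mean of all probe sets or an unmoderated test, 20 with the most variable probe set, 77 with a variance trend, 124 at an adjusted p threshold of 0.10 and from 0 to 68 on leaving out each array in turn. None of these settings called a member at 0.05. The labels tie the replicate numbers to no batch or culture. Same-numbered deviations correlated at 0.28 over all genes and 0.42 over members, a hint from 2 pairs that does not establish pairing. With the replicate number as a block, 2079 genes (13.9%) were called, among them 6 members (SAMD9, GBP2, PARP9, DTX3L, UBE2L6 and GBP1) and 3 pathway genes, and the cause was not tested. For pathway genes, leaving out each array gave from 0 to 1 call, IFNGR1 without the first PC9 array. The members lower in MTAC-P (32 of 46) numbered 20 of 29 with the 50th percentile filter and 10 of 14 above background, where fewer genes are counted. The 14 include members that passed in PC9 only. Their median (-0.16) was -0.10 with the mean of probe sets, -0.10 with the pseudocount and from -0.21 to -0.078 on leaving out each array. The number above background (14) was 26 against the mean of controls with 20 to 25 G or C bases, 42 against the 25th percentile of all probe sets, 46 against the mean of controls with 3 to 19, and 27 against every control with 3 to 24, a limit chosen after seeing the data. The sign turned with the mean of probe sets for IRF1 (-0.042) and IFNAR2 (0.25), and with the most variable probe set for IFNAR2 (0.57). Leaving out each array gave from -0.60 to 0.25 for IRF9, -0.25 to 0.16 for ISG15, -0.35 to 0.010 for OAS3, -0.0044 to 0.46 for OASL, -0.10 to 0.30 for RSAD2 and -0.22 to 0.16 for SAMD9L. The cause was not tested. The other 24 of the 32 named genes kept their sign under every setting that gave them a value.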
